A study of Mus musculus with 4 samples.

Results

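The heat shock chaperones are the proteins that bind unfolded or newly made polypeptides and that cells make in greater amounts after heat or other protein damage. This account covers 10 of their genes, chosen by name, among the 33708 gene rows of an RNA sequencing table of the mouse frontonasal prominence (FNP), the facial tissue that forms the nose and snout. All 10 were found in the table, each in 1 row. They were split into 6 inducible genes (Hspa1a, Hspa1b, Hsph1, Hspb1, Hsp90aa1 and Dnajb1) and 4 constitutive genes (Hspa8, Hsp90ab1, Hspd1 and Hspe1). The classes were set for this account, and a gene called constitutive may also respond to stress.

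FNPs were dissected from 4 FVB/NJ embryos at E10.5, each with 29 somites. The 2 WT embryos were Smchd1+/+ (1 female and 1 male in the sample labels), and the 2 MD43 embryos were Smchd1MommeD43/MommeD43 (both male), homozygous for a chemically induced missense allele of Smchd1, whose product acts on chromatin to keep certain genes silent. The allele was made on an FVB/NJ line with a transgene and then backcrossed to FVB/NJ. A column name of the study gives the second WT embryo as female, in which case sex and genotype cannot be told apart. The second WT and second MD43 embryos shared a mother, and the others came from different mothers.

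Heat shock genes are controlled by heat shock factors, chiefly HSF1. In unstressed cells HSF1 is held inactive, and on stress it forms trimers that bind heat shock elements, inverted repeats of the unit GAA in the promoters of its targets. The HSP70 and HSP90 proteins work through cycles of ATP use that are set by co-chaperones, the small HSPB1 holds unfolded proteins without using ATP, and the HSP60 and HSP10 proteins form the folding chamber of mitochondria. HSPA8 and HSP90AB1 are made in nearly all cells, whereas HSPA1A and HSPA1B are made mainly under stress.

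Each genotype had 1 deposited value per gene, the mean log2 RPKM of its 2 libraries (reads scaled to transcript length in kb and to library size). No value below carries a spread between embryos and no test between genotypes was possible. The implied depth was 22328791 reads per library in MD43 and 16055882 in WT. Reads given for a gene were recovered from the values and are the geometric mean of the 2 libraries of a genotype. The error (SE) and 95% interval given with a difference are the smallest that read counting allows, and leave out variation between embryos. The defining markers of facial mesenchyme were present, with all 10 listed genes read, and their median MD43 minus WT difference was -0.14. Smchd1 differed by -0.01 ± 0.02.

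The chaperone genes spanned nearly the whole range of levels in this tissue, and their order followed the split into constitutive and inducible genes except at 1 point. Hsp90ab1, the constitutive cytosolic HSP90, was the highest at 1499 RPKM in MD43 and 1447 RPKM in WT. Hspa8, Hsp90aa1, Hspd1 and Hspe1 followed between 188 and 256 RPKM, and each of these 5 genes stood above 98.9% of the 15359 genes used (10 reads or more in either genotype). Hsph1 and Dnajb1 lay between 22.6 and 38.3 RPKM. The remaining 3, Hspb1, Hspa1b and Hspa1a, were all inducible and had the lowest levels. Hsp90aa1 was the inducible gene that stood among the constitutive ones, above Hspd1 in WT (211 against 203 RPKM) and below it in MD43 (226 against 245 RPKM).

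**Figure D1:**
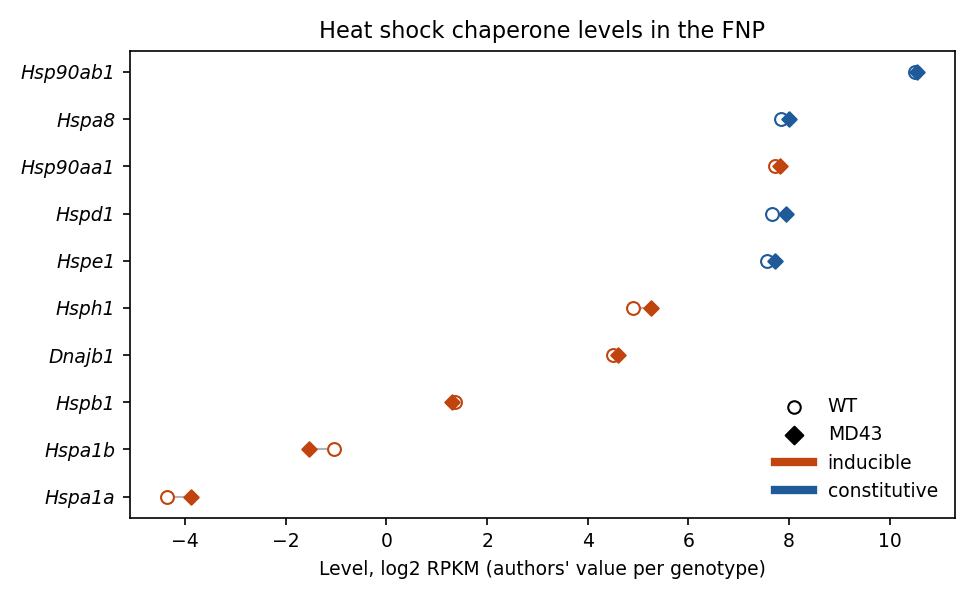
Levels of the 10 heat shock chaperones in log2 RPKM (x axis), 1 gene per line, with the deposited WT value as an open circle and the MD43 value as a diamond, colored by class. The genotypes lie close together at every gene, and the genes range from Hsp90ab1 at 10.55 to Hspa1a at -4.36.

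On the linear scale the RPKM of the 10 genes summed to 2503 in MD43 and 2335 in WT. Hsp90ab1 made up 59.9% of that sum in MD43 and 62.0% in WT. The 4 constitutive genes together made up 88.4% and 88.6%. Hsp90aa1 held 77.5% of the RPKM of the inducible genes in MD43 and 79.1% in WT, so that the summed level of that class was mostly the level of 1 gene.

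No chaperone gene differed by 1.5-fold between the genotypes, in either direction. Among the 15359 genes used, 4.23% were at least 1.5-fold higher in MD43 and 6.43% at least 1.5-fold lower, and at 2-fold the shares were 1.63% and 2.47%. The MD43 value was higher for 8 of the 10 genes and lower for Hspa1b and Hspb1. Of the 9 that passed the minimum of 10 reads 7 were higher, beside 51.2% higher and 48.8% lower among the genes used. At a lower bar of 1.2-fold, Hsph1 and Hspd1 were higher (13.7% of genes used) and Hspa1b was lower (17.3%). Hspa1a was also past 1.2-fold but did not pass the minimum of 10 reads. These shares are those of all genes, most of which had fewer reads than the abundant chaperones.

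Genes with a mean of at least 1000 reads give a closer background, which was chosen after the values had been seen. Of 4623 such genes, 61% were higher in MD43, 6.36% were at least 1.2-fold higher and 3.44% at least 1.2-fold lower. At 1.5-fold the shares were 0.389% and 0.562%. The 7 chaperones among them (Hsph1, Hsp90aa1, Dnajb1, Hspa8, Hsp90ab1, Hspd1 and Hspe1) were all higher in MD43, and 2 of them, Hsph1 and Hspd1, by at least 1.2-fold. Their counting intervals all lay above 0, but the share of the 4623 genes with such an interval was not computed. These intervals leave out variation between embryos, so this is a description only. The intervals of Hspa1a, Hspa1b and Hspb1 included 0.

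**Figure D2:**
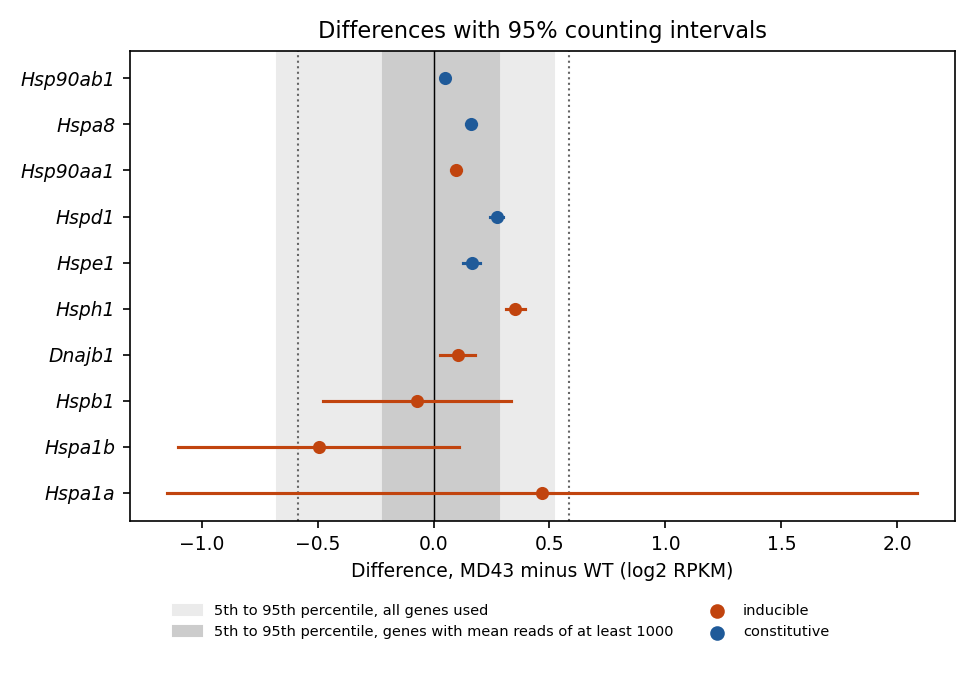
MD43 minus WT difference in log2 RPKM (x axis) for each gene, ordered by WT level, with bars for the 95% counting interval; light and dark bands hold the 5th to 95th percentiles of all genes used and of genes with a mean of at least 1000 reads, and dotted lines mark 1.5-fold. All 10 points lie between the dotted lines, and the intervals widen from Hsp90ab1 at the top to Hspa1a at the bottom.

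Inducible and constitutive genes did not separate by their difference between genotypes. The 4 constitutive genes ranged from 0.05 to 0.27 with a median of 0.16. Of the inducible genes, 5 had at least 10 reads in a genotype, and they ranged from -0.50 to 0.35 with a median of 0.10. The inducible median was thus 0.07 lower (a difference of -0.07 on the log2 scale), and the median over all genes used was 0.01. The sign turned when levels were summed instead, since the summed RPKM of the inducible genes differed by 0.13 and that of the constitutive genes by 0.10. With Hsp90aa1 moved to the constitutive genes the difference of medians was -0.15. Hspd1 and Hspe1, whose promoter windows hold heat shock element letters, were not tried among the inducible genes, so the difference depends on where they are placed.

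The HSP70 genes showed the widest gap in level. Hspa8 (ENSMUSG00000015656, chr9:40800984-40810087 in GRCm38, plus strand), the constitutive cytosolic HSP70, had 24602 reads in MD43 and 15818 in WT, or 256 and 229 RPKM. Its difference was 0.16 ± 0.01. Hspa1b (ENSMUSG00000090877, chr17:34956436-34959238, minus strand), a stress-inducible HSP70, had 21.5 and 21.8 reads, or -1.54 and -1.05 log2 RPKM. Per length, Hspa8 was therefore 746-fold above Hspa1b in MD43 and 473-fold above it in WT.

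Hspa1b was lower in MD43 by a difference of -0.50 ± 0.31, with an interval from -1.10 to 0.11. The product of the reads of its 2 libraries was 462 in MD43 and 475 in WT, and the whole-number pairs closest to each other with these products are 21 and 22, and 19 and 25. Which counts the libraries held cannot be told, because 8 pairs give the first product and 3 give the second. Both genotypes thus had about the same number of reads at Hspa1b, and the MD43 libraries were 1.39-fold deeper.

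Hspa1a (ENSMUSG00000091971, chr17:34969190-34972156, minus strand), the neighbouring copy, had the fewest reads of the 10 genes. In WT 1 library had 0 reads, a count that allows up to 3, and the other had 6. In MD43 the product was 20, and the closest pair is 4 and 5. The ratio of MD43 to WT was 1.38, with an interval on the log2 scale from -1.15 to 2.09, so no difference was detectable at this depth. With the geometric-mean reads of both copies summed (26.0 in MD43 and 24.1 in WT) the difference was -0.37 ± 0.29. The WT library without Hspa1a reads entered that sum as 0.9 reads.

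The copies are single-exon genes and can share reads. Of all 75-base words in the annotated Hspa1a transcripts, the length of the reads, 61.7% also occur in transcripts of another gene, as do 55.8% of those of Hspa1b. Their largest overlap was with each other, at 52.7% of the Hspa1a words. How reads that fit several places were counted is not given in the sources used here, so the levels of this pair are uncertain. The same holds in part for Hspa8, where 33.0% of words occur in transcripts of 14 other genes. Hspa1l, the third gene of this locus and named after its values had been seen, had 58.8 and 38.7 reads, with a difference of 0.13 ± 0.21, a value within its error.

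The promoters of the pair show how alike the copies are, and each holds letters that match a short form of the heat shock element. RefSeq promoter windows (GRCm38.p6, 250 bases before to 50 after a start site) were found for 7 of the 10 genes, with none for Hspa8, Hsp90aa1 and Hsp90ab1. The windows of Hspa1a and Hspa1b are identical at 296 of 300 bases. Bases -140 to -1 from the start site, both on the minus strand, are shown with the matching letters in capitals, for Hspa1a at chr17:34972157-34972296 and for Hspa1b at chr17:34959239-34959378.
Hspa1a: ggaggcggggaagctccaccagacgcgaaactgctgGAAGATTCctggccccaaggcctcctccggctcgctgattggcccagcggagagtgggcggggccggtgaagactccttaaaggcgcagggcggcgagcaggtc
Hspa1b: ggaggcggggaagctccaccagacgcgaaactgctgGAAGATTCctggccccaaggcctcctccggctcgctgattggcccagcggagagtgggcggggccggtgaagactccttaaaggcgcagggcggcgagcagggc

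The search took the 2-unit element in both orders, GAANNTTC and TTCNNGAA, each of which reads the same on either strand. It was found in a window of 6 of the 7 genes, beside 17.0% of all 27025 genes with a window (15.1% of all 32851 windows). In Hspa1a and Hspa1b the match begins at -104, and 139 of the 140 bases shown are the same in both. Letters of the CCAAT box, in either orientation, begin at -67 in both, and occur in 37.4% of all windows. A match is a description of letters and not a measured site.

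**Figure D3:**
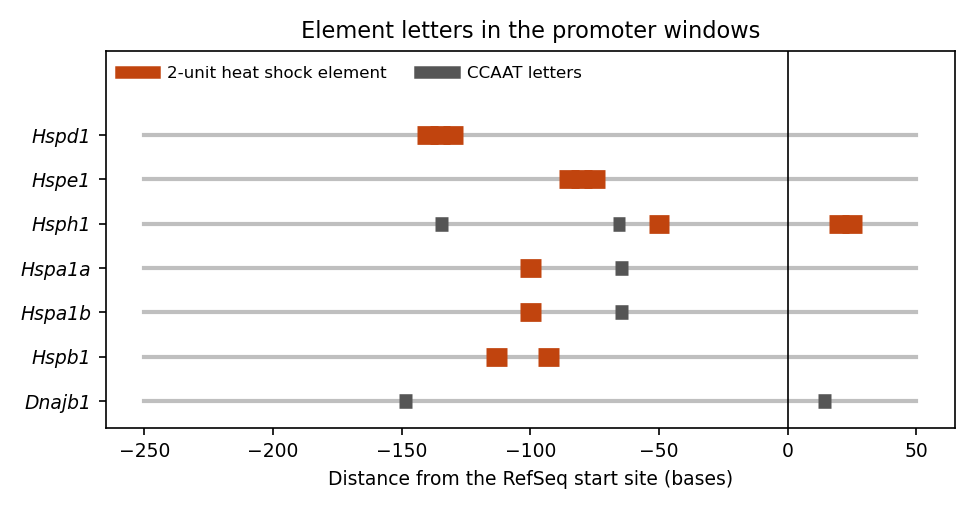
Positions of 2-unit heat shock element letters (red) and CCAAT letters (grey) in 1 RefSeq promoter window per gene, by distance from the start site in bases (x axis). Hspd1 and Hspe1 hold overlapping runs, drawn from the same bases, Hspa1a and Hspa1b share 1 position at -104, and the Dnajb1 window holds no match to the element.

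HSPH1 is an HSP110 protein, a relative of HSP70 that releases nucleotide from it. Hsph1 (ENSMUSG00000029657, chr5:149614287-149636376, minus strand) showed the greatest difference among the 7 of the 10 genes with a mean of at least 1000 reads. Its level was 5.26 log2 RPKM in MD43 against 4.91 in WT, and its reads were 6222 and 3503. The difference was 0.35 ± 0.02, or 1.28-fold higher in MD43, and 21.7% of genes used had a difference of greater size in either direction. Among genes with a mean of at least 1000 reads, the 5th to 95th percentiles were -0.22 to 0.28, and Hsph1 lay above that range. None of its 75-base words occurs in another gene. An exon near its start holds a 3-unit element, that is 3 units of GAA and TTC in alternation, which is found in 0.603% of all windows.

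The element of Hsph1 begins at base 16 from 1 of 2 Hsph1 start sites and at base 37 from the other. It is shown in capitals at chr5:149636280-149636308 on the minus strand. Its sequence can be compared with that of the mitochondrial pair Hspd1 and Hspe1, shown at chr1:55088053-55088082 on the plus strand, where 4 units follow each other.
Hsph1: gctgcagaTTCTGGAAAGTTCtcctcagt
Hspd1 and Hspe1: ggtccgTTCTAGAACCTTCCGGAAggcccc

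The other cytosolic HSP110 genes had smaller or opposite differences. Hspa4, the constitutive HSP110, was at 6.71 log2 RPKM in MD43 and 6.60 in WT, a difference of 0.11 ± 0.01, and Hspa4l was at 2.87 and 3.21, a difference of -0.34 ± 0.03. Both were chosen for their family after their values had been seen. The difference of Hsph1 exceeded that of Hspa4 by 0.25 ± 0.03 and that of Hspa4l by 0.70 ± 0.04. Per length Hsph1 was 5.25-fold above Hspa4l in MD43 and 3.24-fold above it in WT.

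The cytosolic HSP90 genes were nearly level between the genotypes. Hsp90ab1 (ENSMUSG00000023944, chr17:45567775-45573271, minus strand) was read 100386 times in MD43 and 69691 times in WT, with a difference of 0.05 ± 0.01. Hsp90aa1 (ENSMUSG00000021270, chr12:110690605-110702728, minus strand), the inducible form, had 19836 and 13346 reads, with a difference of 0.10 ± 0.01. Hsp90ab1 was 6.63-fold above Hsp90aa1 in MD43 and 6.84-fold above it in WT. The difference of Hsp90aa1 exceeded that of Hsp90ab1 by 0.05 ± 0.01. Transcripts of other genes held 42.8% of the 75-base words of Hsp90aa1 and 0.537% of those of Hsp90ab1.

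Hspd1 and Hspe1 encode HSP60 and HSP10 and lie head to head on chromosome 1 with overlapping 5′ ends. Hspd1 (ENSMUSG00000025980, chr1:55077835-55088243, minus strand) stood at 245 RPKM in MD43 against 203 RPKM in WT (14454 and 8609 reads), with a difference of 0.27 ± 0.01. Hspe1 (ENSMUSG00000073676, chr1:55088132-55091307, plus strand) stood at 211 against 188 RPKM (6939 and 4454 reads), with a difference of 0.16 ± 0.02. Both were thus higher in MD43, and the difference of Hspd1 exceeded that of Hspe1 by 0.11 ± 0.02. In level the pair was close to even, with Hspd1 1.16-fold above Hspe1 in MD43 and 1.08-fold above it in WT.

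The 4-unit element shown above lies at chr1:55088059-55088076 and was found in windows of 8 of 27025 genes, the pair included. It begins at -89 from the Hspe1 start site and at -144 from 1 of 2 Hspd1 start sites. From the other Hspd1 start site it lies downstream, in an annotated Hspd1 exon. The overlap of the genes makes up 1.42% of the Hspd1 words and 2.71% of the Hspe1 words, and the use of strand in the counting is not stated, so a few reads cannot be assigned. A pseudogene, Hspd1-ps3, shares 28.6% of the Hspd1 words. Of the Hspe1 words, 14.6% occur in transcripts of 3 other genes, Hspd1 among them.

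The last 2 inducible genes were at moderate and low levels. Dnajb1 (ENSMUSG00000005483, chr8:83608193-83612653, plus strand), the HSP40 partner of stress-inducible HSP70, stood at 24.3 RPKM in MD43 against 22.6 RPKM in WT (1737 and 1162 reads). Its difference was 0.10 ± 0.04. Dnaja1, another HSP40 gene that was also named after its values had been seen, was at 4.85 and 4.77 log2 RPKM, and the differences of these HSP40 genes were 0.02 ± 0.04 apart, within counting error. None of the Dnajb1 words occurs in another gene, and neither of its 2 windows holds a match to the 2-unit element.

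Hspb1 (ENSMUSG00000004951, chr5:135887919-135889563, plus strand), the small heat shock protein HSP25, was at 1.30 log2 RPKM in MD43 and 1.37 in WT. The product of reads was 3200 in MD43 and 1827 in WT, a geometric mean of 56.6 and 42.7. The difference was -0.07 ± 0.21, smaller than its counting error. The pseudogene Hsp25-ps1 shares 46.4% of its words. Bases -140 to -1 of its promoter, at chr5:135887779-135887918 on the plus strand, hold 2 separate 2-unit matches, at -117 and -97, which are shown in capitals.
Hspb1: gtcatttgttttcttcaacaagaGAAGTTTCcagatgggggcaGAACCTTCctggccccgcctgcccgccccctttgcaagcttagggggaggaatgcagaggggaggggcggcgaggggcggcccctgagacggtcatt

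The wider chaperone network was read from 6 lists of other genes. Of 81 listed genes 78 passed the minimum of 10 reads, and none of the 78 was past 1.5-fold, beside 4.23% higher and 6.43% lower among all genes used and 0.389% and 0.562% among genes with a mean of at least 1000 reads. Their median difference was 0.06, and 53 were higher and 25 lower in MD43, beside 51.2% higher among all genes used and 61% among those with at least 1000 reads. The heat shock factors themselves were close to level. Hsf1, the main activator, differed by 0.12 ± 0.05, Hsf2 by -0.08 ± 0.04 and Hsbp1, which binds HSF1, by -0.10 ± 0.04. Hsf4 and Hsf5 had at most 4 reads and did not pass the minimum, and the value of Hsf4 differed by 0.73 ± 0.93.

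The list of other cytosolic chaperones taken as stress-inducible had a median of 0.05, with 10 of 18 higher. Cryab, a small heat shock protein gene, was at 2.37 log2 RPKM in MD43 and 1.91 in WT, the greatest of these differences (0.46 ± 0.13), while Dnaja4 (-0.39 ± 0.17) and Hspa2 (-0.37 ± 0.18) were lower. Dnaja4 (71.6 reads in MD43 and 67.4 in WT) and Hspa2 (69.6 and 64.5) had few reads. The genes of this list thus lay in both directions, with 8 of 18 lower. Within the 10, the lower genes Hspa1b and Hspb1 had intervals that include 0. Other cytosolic co-chaperones had a median of 0.09, with 14 of 19 higher, and Hspbp1, an exchange factor for HSP70, differed by 0.32 ± 0.04, Dnajc2 by 0.19 ± 0.03 and Unc45a, an HSP90 partner for myosin folding, by 0.18 ± 0.05. The 8 subunits of TRiC, the cytosolic folding chamber, ranged only from -0.07 (Cct2) to 0.10 (Cct7), with Cct6a at 0.07.

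Chaperones of other compartments held members in both directions. In mitochondria 8 of 12 genes were higher, with a median of 0.05. Grpel1, an exchange factor for mitochondrial HSP70, differed by 0.27 ± 0.04, close to Hspd1, whereas Grpel2 (-0.20 ± 0.05) and Hscb (-0.24 ± 0.10) were lower. In the endoplasmic reticulum 15 of 18 genes were higher, with a median of 0.06. Hyou1, the HSP110 of that compartment, differed by 0.41 ± 0.03 and Creld2 by 0.39 ± 0.06, but Ddit3, a transcription factor of the stress response there, by -0.40 ± 0.10.

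Immediate early genes, which respond within minutes to handling and other stimuli, had a median of -0.21 and 7 of 9 were lower in MD43. Among all genes used 48.8% were lower, 6.43% by at least 1.5-fold. Atf3 (-1.22 ± 0.18) and Egr1 (-1.06 ± 0.21) were past 1.5-fold, and Btg2 differed by -0.30 ± 0.05. Neither this group nor the stress-inducible HSP70 genes was higher in MD43 by 1.5-fold at any gene.

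Marker lists of other tissues also differed in level between the genotypes. For comparison, 51.2% of all genes used were higher in MD43 and 48.8% were lower. The red blood cell list was higher in MD43 (8 of 8 genes read, median 0.91), with a summed RPKM of 6011 in MD43 and 3167 in WT, led by the embryonic globin Hbb-bh1 at 1.04 ± 0.01. Hba-a2 (2.57 ± 0.15), which has a near-identical copy, and Slc4a1 (1.52 ± 0.08) differed most. Alas2 and Ahsp, also on the red blood cell list, were not found among the gene rows and are not counted. Surface ectoderm genes were higher (8 of 9, median 0.61, summed RPKM 192 and 124), among them Cldn6 (0.87 ± 0.05), Cdh1 (0.73 ± 0.05) and Krt8 (0.70 ± 0.04). Diencephalon and optic vesicle genes were lower (9 of 9, median -1.40, summed RPKM 26.7 and 42.7), among them Rax (-2.17 ± 0.24), Dbx1 (-1.40 ± 0.15) and Lhx5 (-1.12 ± 0.07). The median of this last list was -0.41 with a pseudocount of 1 RPKM and -0.79 over its genes with a mean of at least 50 reads. The facial mesenchyme genes went in both directions, with 4 higher and 6 lower in MD43. Among the lower ones Twist1 differed by -0.39 ± 0.05 and Prrx1 by -0.29 ± 0.03. The part of these tissues in the small chaperone differences was not tested, and in whole tissue fewer cells of a type and less RNA per cell cannot be told apart.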

How the data were processed

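Per the labels, each of the 4 FNP libraries was a stranded mRNA library started from 100 ng of RNA. The authors trimmed the reads (75 bases, single end) with Trim Galore 0.4.4, mapped them with HISAT2 2.0.5 to GRCm38.p6 and quantified them in SeqMonk. The deposited values are log2 RPKM, 1 column per genotype, which the authors scaled to the size of each library and the length of each transcript. Each is the mean of the log2 values of 2 libraries. The deposited fold change, mean and FDR (adjusted p-value of an edgeR-based test, listed for part of the genes) are comparisons by the authors and were not used.

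Differences are the MD43 minus the WT value. The table was joined to GENCODE M21 on symbol and position (33101 rows). Rows without a match have no recovered reads and are not among the genes used. The commonest difference, -0.4758, was taken as that of genes without reads (0.9 reads per library), which set the depths and gave the product of the reads of the 2 libraries. Of products under 1000, 99.9% were whole numbers, 0.9 times one, or 0.81, within 0.01, in each genotype. A recurring symbol counted once, by its row with most reads. The recovery was tested on simulated data built with the same scaling and the same 0.9 reads. That test checks the calculation, and cannot show how the deposited values were made. The counting SE on the log2 scale is the square root of the mean of both inverse reads, divided by the natural log of 2. Its interval spans 95%.

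The genes and lists were chosen with earlier results of these data known. Named genes are the 10 chaperones, Smchd1 and, in each other list, up to 3 genes with the greatest difference among those with a mean of at least 50 reads. A gene that this rule names is not reported here. Hspa1l, Hspa4, Hspa4l and Dnaja1 were added as relatives of the 10 after their values had been seen, as were the genes with a 4-unit element. Ier2, Alas2 and Ahsp are named because their lists hold them and the counts leave them out. The alternatives were pseudocounts of 0.1 and 1 RPKM, centring, a correction for base composition (GC) and length, other filters and folds, summed levels and other groupings. Python 3.11.15, pandas 2.3.3 and numpy 2.4.6 were used.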

Additional observations from a re-analysis of the deposited data

How the results depend on the processing

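No paired analysis was possible because each genotype has 1 value per gene, the mean of its libraries, and for the same reason no library could be left out. The correction for base composition and length was a fit that accounted for 1.40% of the variance. It moved the inducible minus constitutive difference from -0.07 to -0.11 and the constitutive median from 0.16 to 0.21. The heat shock factor median moved from -0.08 to 0.079 and the TRiC median from 0.04 to 0.086, and the cause was not tested. The median over all genes used also rose with the correction, from 0.0055 to 0.036, so a rise was not particular to these groups. The inducible minus constitutive difference was 0.029 with summed RPKM, where Hsp90aa1 dominates, and -0.15 with Hsp90aa1 among the constitutive genes. The heat shock factor median was 0.12 without the filter on reads, through Hsf4 and Hsf5, which had at most 4 reads. At 1.2-fold, 2 chaperones that passed the filter were higher and 1 lower, by the lower bar itself. None of the 10 genes changed direction under the pseudocounts, the centring and the correction, and 35 of these 40 values stayed within the counting interval. The other 5 were higher with the correction, as was the median over all genes used. They were Hsph1 at 0.40, Hsp90aa1 at 0.17, Hspa8 at 0.21, Hspd1 at 0.31 and Hspe1 at 0.21. The diencephalon median was -0.41 with a pseudocount of 1 RPKM and -0.79 over genes with a mean of at least 50 reads. A pseudocount cannot turn a direction. Depth limits Hspa1a, Hspa1b and Hspb1, whose counting intervals include 0.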

Other observations

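Genes with heat shock element letters in a RefSeq promoter window were described as a group after the chaperones had been seen. Outside the 10 chaperones, 58 genes used had a 3-unit element in a window. Their median difference was -0.00067, 29 of them were higher in MD43, 3 were at least 1.5-fold higher and 3 at least 1.5-fold lower (5.17% in each direction). Among the 10966 genes used with a window, whatever its letters, the median was 0.0057, and 3.47% were at least 1.5-fold higher and 5.75% lower. The 1513 genes with a 2-unit element had a median of 0.0023.

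The 4-unit element was found for 4 other genes used. Chordc1, an HSP90 co-chaperone that responds to heat, was at 3.67 log2 RPKM in MD43 and 3.65 in WT. Arpc2, a subunit of the actin-nucleating ARP2/3 complex, was at 6.42 and 6.45, Fam149a at 2.24 and 2.01 and Kctd18 at 2.06 and 2.09. None of the 4 was 1.2-fold apart.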
